A study of Saccharomyces cerevisiae with 26 samples.

Results

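Yeast (Saccharomyces cerevisiae) was grown in a galactose chemostat, a continuous culture held at steady state, and given a transient glucose pulse. Described here is the late window of the smaller pulse: the 3 arrays labelled 90, 120 and 150 min after 0.2 g/l glucose, chosen by title, of 26 arrays in the series. The series has 12 arrays of 0.2 g/l and 14 of 2 g/l, each comparing total RNA of 1 time (Cy5) with that of the culture at t=0 (Cy3). Every time was measured on 1 array, with no replicate culture and no exchange of dyes, and the labels give no strain, growth rate or age of the culture. The late window is set against the t=0 culture, against the early window (2 to 10 min, 5 arrays) and the middle window (15 to 45 min, 4 arrays) of the same pulse, and against the late window of 2 g/l (90 to 150 min, 3 arrays). All p-values therefore measure the spread between times and arrays, which may be technical, and the amount of glucose and the culture cannot be told apart. In the test against t=0, an offset of the t=0 RNA or of the dyes that the arrays share would not enter this spread. Such an offset cancels between windows of the same pulse. Values are log2 ratios to t=0, on which 1 is a doubling, and genes with several spots are averaged.

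Galactose and glucose enter yeast metabolism by different routes. Glucose represses the genes for galactose use, gluconeogenesis and respiration through the Snf1 kinase and Mig1, induces hexose transporters of matching affinity through Rgt1, and through protein kinase A raises the genes for ribosomes while lowering stress genes. When the sugar has been used up, repressed genes come back and induced genes are switched off. Iron uptake is governed separately by the activators Aft1 and Aft2, the proteasome by Rpn4, and the enzymes of amino acid synthesis by Gcn4.

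Of the 3 late arrays that of 90 min stood apart, and the difference followed the position of a spot in the deposited table. The table was divided into 32 runs of equal length, and how these lie on the glass is not given in the sources used here. On the 90 min array the medians of runs 1 to 16 lay between -0.02 and 0.21, and those of runs 17 to 32 between -1.17 and -0.08. At 120 min all runs lay between -0.06 and 0.16. At 150 min runs 29 to 32 lay between -0.45 and -0.29, while no earlier run was below -0.034. Arrays set against the late window were shifted by position too. In the middle window of 0.2 g/l the lowest run medians were -0.89, -1.06, -1.44 and -1.57 at 15, 20, 30 and 45 min. At 90 min after 2 g/l the highest run median was 1.33. Across genes the 90 min array correlated with the mean of the other 2 at r = 0.44, against 0.63 for 120 min and 0.68 for 150 min. Between 5329 and 5533 genes had a value on the 3 arrays. The main counts below are therefore also given with every run centred on its own median, an alternative chosen after these values had been seen, and without single arrays.

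**Figure D1:**
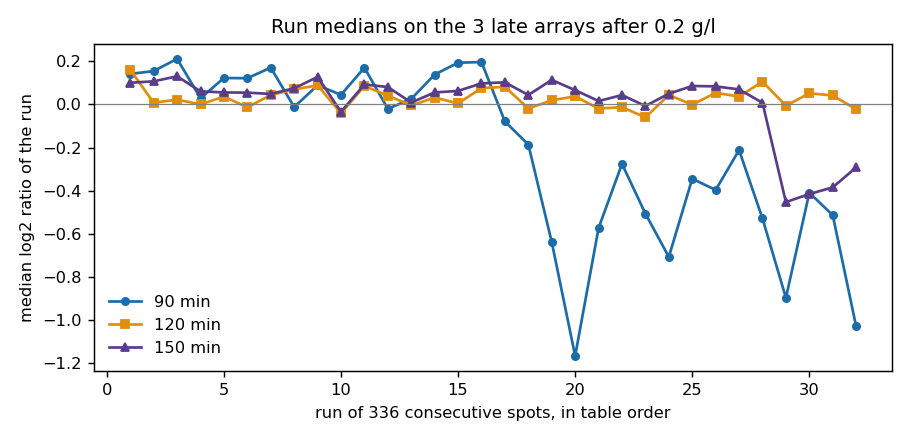
Median log2 ratio (vertical axis) of each run of consecutive spots in table order (horizontal axis) on the arrays of 90 min (circles), 120 min (squares) and 150 min (triangles) after 0.2 g/l. The 90 min line falls from run 17 on, to -1.17 at run 20, the 150 min line falls from run 29 on, and the 120 min line stays between -0.06 and 0.16.

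Against t=0, limma called 405 of 5372 genes in the late window (adjusted p of at most 0.05, 7.54%), 194 higher (3.61%) and 211 lower (3.93%). The higher genes had small differences, with a median of 0.50, and only 1 of them, CYC1, reached 1 on the log2 scale. The lower genes had a median of -0.99, and 102 of them reached -1. Of the higher genes 190 were above 0 on all 3 arrays, and 191 of the lower genes were below 0 on all 3. The calls rest on the same 3 arrays, so a shared sign is no separate support. Genes without a value on any 1 of these arrays are not in the 190 and 191, and the share over all genes was not counted. The 2 directions came from different places in the table: of 2583 genes with all spots in runs 1 to 16, 149 were higher and 34 lower, while of 2508 genes in runs 17 to 32, 40 were higher and 162 lower. With runs centred, 330 genes were higher (6.14%) and 195 lower (3.63%), and 304 of the calls were shared with the uncentred fit. The count was 161 without the 90 min array, 314 without 120 min and 96 without 150 min, and with only the 3 late arrays in the fit limma called 0 genes (1487 at an unadjusted p under 0.05). Centring each array on its median left 149 higher and 258 lower. Genes called lower also lacked values more often, 59.2% of them on at least 1 of the 26 arrays, against 9.79% of the higher genes and 25% of all genes tested. The part of position and missing values in these counts was not tested.

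Of the 35 lists, that for iron uptake held the most genes called lower. Of 35 iron genes tested (of 36 in the list), 10 were lower and 0 higher than at t=0, beside 3.93% and 3.61% of all genes. The median of the list was -0.28 beside 0.03 for all genes. The list medians were -0.37 at 90 min, -0.24 at 120 min and -0.22 at 150 min. FIT2 and FIT3 encode cell wall mannoproteins that hold iron-loaded siderophores. FIT2 was at -3.05, -2.45 and -1.87 at 90, 120 and 150 min (mean -2.45 ± 0.59, SD, n = 3, limma adjusted p = 3.54e-05). FIT3 was at -2.17, -2.09 and -2.05 (-2.10 ± 0.06, adjusted p = 1.97e-07). Both thus lay below 0 on every late array, FIT3 with little spread between times. FRE5, a reductase by sequence likeness, was at -1.18, -2.07 and -1.88 (adjusted p = 0.00045).

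The siderophore transporters were below t=0 as well. ARN2 was at -2.05, -1.03 and -1.76 (adjusted p = 0.0108), and ARN1 at -1.02, -1.12 and -0.99 (adjusted p = 0.00084). ENB1, which carries enterobactin, was at -1.04, -1.02 and -0.84 (adjusted p = 0.005), and SIT1 at -1.12, -0.72 and -0.69 (adjusted p = 0.0127). All late values of these 4 transporters were at or below -0.69. The multicopper oxidase FET3, which works in reductive iron uptake, was at -0.95, -0.98 and -0.91 (-0.95 ± 0.03, adjusted p = 0.00084), while its partner permease FTR1 had no value at 90 min and -0.74 and -0.47 afterwards (adjusted p = 0.092). TIS11, whose protein binds transcripts of iron-using enzymes and speeds their decay, was at -1.20, -1.07 and -1.07 (adjusted p = 0.0013). FRE3, a siderophore reductase, was called at -1.39, -0.55 and -0.58 (adjusted p = 0.024).

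Some members of the iron list did not pass. FIT1 scattered between -1.84 and 0.17 (adjusted p = 0.26), and the main surface reductase FRE1 was at -0.98, -0.93 and -0.60 (adjusted p = 0.067). CCC1, which carries iron into the vacuole, had the highest estimate, at 0.41, 0.39 and 0.57 (adjusted p = 0.058). With runs centred 9 iron genes were lower, without 90 min 7, without 120 min 10 and without 150 min 7. Centring ended the calls of ARN1 (adjusted p = 0.053) and FRE3 (adjusted p = 0.22). Without 90 min the calls of ARN2, SIT1 and FRE3 ended (adjusted p = 0.103, 0.131 and 0.26), and without 150 min they ended too (adjusted p = 0.0895, 0.0663 and 0.0769). FIT2, FIT3, FRE5, TIS11, ARN1, ENB1 and FET3 were called without each single late array, with adjusted p from 1.29e-05 to 0.0431.

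**Figure D2:**
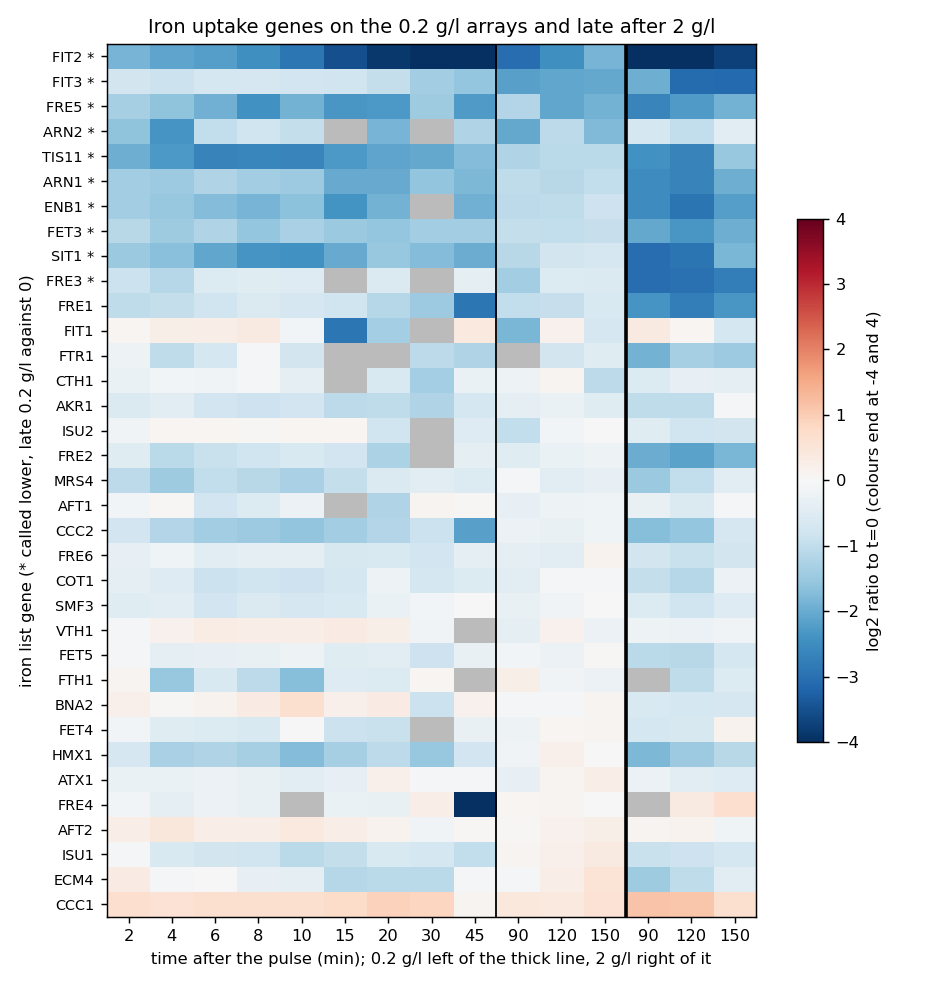
Log2 ratio to t=0 (colour, blue below 0, red above 0, grey without a value) of the 35 iron genes tested (rows, ordered by their late estimate) on the 12 arrays of 0.2 g/l and the 3 late arrays of 2 g/l (columns, minutes). FIT3 is darker from 90 min on than before, while TIS11, SIT1 and ENB1 are paler late after 0.2 g/l than in the middle window and than late after 2 g/l.

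Along the 0.2 g/l pulse, 8 of the 10 called iron genes had their lowest value before 90 min, and FIT3 and FRE3 had it in the late window. Most of the 12 arrays lie before 90 min, 5 in the early and 4 in the middle window. The share of all genes with their lowest value there was not counted, so the 8 of 10 cannot be read as particular to iron genes. TIS11 lay between -2.29 and -1.72 in the middle window and rose by 1.32 from the early to the late window (adjusted p = 0.0045). HMX1, the heme oxygenase that frees iron from heme, was between -1.53 and -0.78 in the middle window and at -0.15, 0.20 and -0.03 late, a rise of 1.18 (adjusted p = 0.0128). FIT3 went the other way: it was between -0.85 and -0.66 in the early window, -1.53 and -0.78 in the middle window, and below -2 on each late array, 1.36 lower than early (adjusted p = 0.002). Of the 35 iron genes, 5 were higher and 1, FIT3, lower in the late than the middle window, and 6 were higher and 1, again FIT3, lower than in the early window. Over all genes 1.27% were higher and 0.633% lower against the middle window, and 1.19% and 2.59% against the early window. With runs centred these shares were 1.66% and 2.25% against the middle window, and 2.27% and 3.37% against the early window. Against the middle window the iron counts were 3 higher and 2 lower with runs centred, 3 higher without 90 min, 1 higher without 120 min and 0 without 150 min, and the calls of FIT3 ended without each single late array (adjusted p = 0.0924, 0.117 and 0.115). Against the early window they were 5 higher and 1 lower with runs centred, and 3 or 4 higher and 1 lower without single late arrays.

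Subunits of the proteasome, the complex that degrades ubiquitin-tagged proteins, lay slightly above t=0. Of 32 subunit and regulator genes tested (of 34 in the list, with PRE9 and RPN5 not tested), 14 were higher and 0 lower. Over all genes these shares were 3.61% and 3.93%. The list median was 0.37 beside 0.03 for all genes. The list medians were 0.25, 0.35 and 0.46 at 90, 120 and 150 min. Of the 32, 30 had an estimate above 0, and SEM1 and RPT3 were the exceptions. The 14 called genes were 8 of the core particle (SCL1, PRE4, PRE5, PRE6, PRE7, PUP1, PUP2, PUP3), 5 RPN subunits of the regulatory particle (RPN1, RPN3, RPN7, RPN11, RPN13) and the ATPase RPT1.

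In the core, SCL1 had no value at 90 min and was at 0.66 and 0.84 afterwards (adjusted p = 0.00084). PRE7 was at 0.52, 0.65 and 0.81 (0.66 ± 0.15, SD, n = 3, adjusted p = 0.0045), and PRE6 at 0.52, 0.51 and 0.66 (0.56 ± 0.09, adjusted p = 0.0019). In the regulatory particle, RPN13, a ubiquitin receptor, was at 0.40, 0.72 and 0.65 (0.59 ± 0.17, adjusted p = 0.0026). RPN3 was at 1.70 at 90 min but 0.16 and 0.44 afterwards, and leaving out 90 min ended the call (adjusted p = 0.45). RPN4, the activator of the proteasome genes, was at 0.03, 0.18 and 0.15 (adjusted p = 0.75), but at 0.57 with runs centred (adjusted p = 0.0026). PRE6 and RPN13 were called without each single late array, and PRE7 lost its call without 150 min (adjusted p = 0.0739). Runs centred gave 17 higher members, beside 6.14% of all genes, and centring of whole arrays gave 8. The count was 7 without 90 min, 7 without 120 min and 2 without 150 min. At 2 min after the pulse the list median was 0.19, with PRE7 at 0.58 and PRE6 at 0.45.

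Some enzymes of amino acid synthesis were also above t=0. Of 64 genes tested (of 67), 13 were higher and 1, TRP2, lower, beside 3.61% and 3.93% of all genes. The list median was 0.30, with array medians of 0.34, 0.24 and 0.31. ARG4 and ARG1, which make arginine from citrulline, led the list. ARG4 was at 0.99, 0.83 and 0.88 (0.90 ± 0.08, SD, n = 3, adjusted p = 0.0083), and ARG1 at 0.96, 0.60 and 0.79 (adjusted p = 0.034). In the histidine pathway HIS4 was at 1.16, 0.35 and 0.65 (adjusted p = 0.0119) and HIS3 at 0.51, 0.67 and 0.76 (adjusted p = 0.0083). The other called genes, named to account for the count, were ARG7, ARO3, LEU4, LYS1, LYS21, HIS5, ILV2, PHA2 and GCN4, the activator of the pathway itself, at 0.47, 0.56 and 0.61 (adjusted p = 0.0112).

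These calls depended on single arrays: without 150 min ARG4, ARG1, HIS4, HIS3 and GCN4 lost them (adjusted p from 0.0639 to 0.159), and without 90 min ARG4, ARG1 and HIS4 did (adjusted p from 0.0627 to 0.195). ARG1 also lost its call without 120 min (adjusted p = 0.0673). GCN4 (adjusted p = 0.175) and TRP2 (adjusted p = 0.213) lost theirs with runs centred.

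The arginine genes had been low in between. ARG4 lay between -0.79 and -0.18 in the middle window and was 1.49 higher late (adjusted p = 0.0073), and ARG1 rose by 1.55 (adjusted p = 0.0105), but without 150 min both calls ended (adjusted p = 0.0507 and 0.0589). At 2 min, however, ARG4 had been at 0.94, ARG1 at 1.08 and HIS4 at 0.98, and the list median was 0.47, above its late value. Late after 2 g/l ARG4 was at 0.79, 0.48 and 0.93, which overlaps the late values after 0.2 g/l. With runs centred 17 members of the list were higher against t=0, where 6.14% of all genes were. The count was 7 without 90 min, 10 without 120 min and 1 without 150 min, LEU4 (adjusted p = 0.0297).

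**Figure D3:**
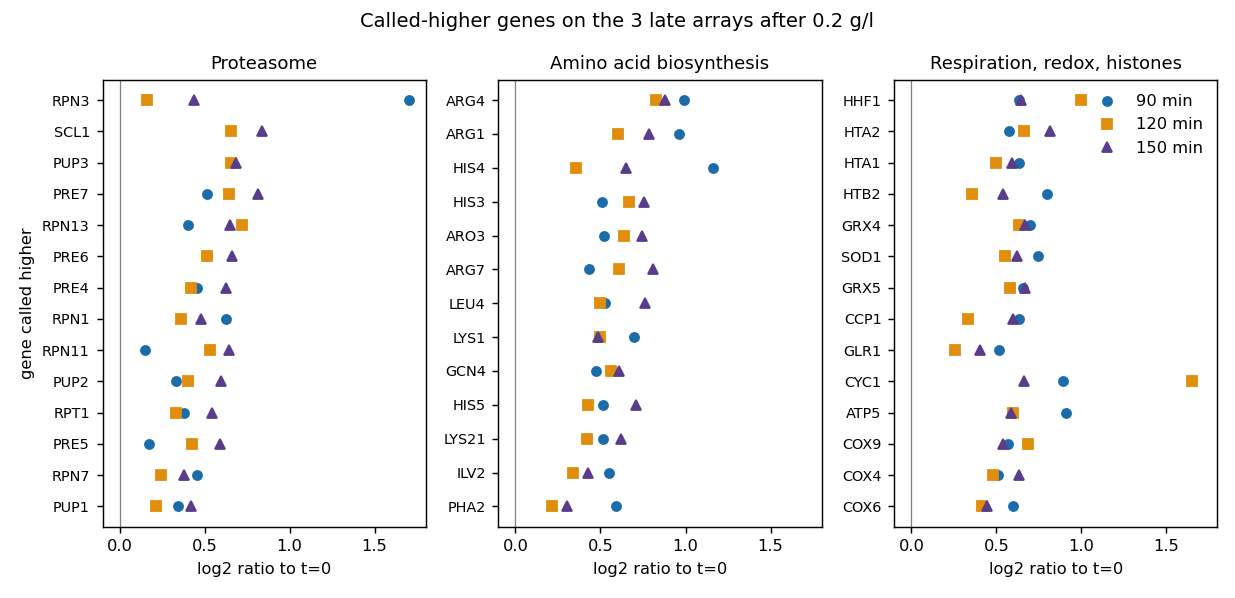
Log2 ratio to t=0 (horizontal axis) at 90 min (circles), 120 min (squares) and 150 min (triangles) of each gene called higher (rows) in the proteasome, amino acid, respiratory chain, redox and histone lists. All points lie above 0, RPN3 is high at 90 min alone (1.70) and CYC1 at 120 min (1.65), and SCL1 and PUP3 have no 90 min point.

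Several nuclear genes for mitochondrial respiration were above t=0. Of 35 genes of the respiratory chain and ATP synthase, 5 were higher and 0 lower (median 0.26), and with runs centred 10 were higher. Over all genes 3.61% were higher, and 6.14% with runs centred. CYC1, for cytochrome c, was the highest called gene of the window, at 0.89, 1.65 and 0.66 (1.07 ± 0.52, SD, n = 3, adjusted p = 0.005), though leaving out 120 min ended the call (adjusted p = 0.073). ATP5, a stalk subunit of ATP synthase, was at 0.91, 0.60 and 0.59 (0.70 ± 0.18, adjusted p = 0.0038). The cytochrome c oxidase subunits COX9, COX4 and COX6 had means between 0.49 and 0.60. ATP5 had been between -0.41 and 0.43 in the middle window and lay between 0.02 and 0.13 late after 2 g/l. The array medians of the list were 0.28, 0.36 and 0.27, and 0.07 at 2 min. Without 90 min 2 members were called, without 120 min 3 and without 150 min 2, and ATP5 lost its call without 90 min (adjusted p = 0.0565). Of 68 mitochondrial ribosomal proteins 5 were higher and 2 lower (10.3% called, beside 7.54% of all genes), and limma called 0 without 90 min and 0 without 150 min.

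In the list of thioredoxin, peroxiredoxin and superoxide defence, 5 of 30 genes were higher and 0 lower (median 0.21), beside 3.61% and 3.93% of all genes. The 5 were GRX4 and GRX5, monothiol glutaredoxins that handle iron-sulfur clusters, the copper-zinc superoxide dismutase SOD1, cytochrome c peroxidase CCP1 and glutathione reductase GLR1. GRX5 was at 0.65, 0.58 and 0.67 (0.63 ± 0.05, SD, n = 3, adjusted p = 0.0097), and SOD1 at 0.74, 0.55 and 0.62 (0.64 ± 0.10, adjusted p = 0.0145). GRX4 was at 0.70, 0.63 and 0.67 (adjusted p = 0.0254), a call that runs centred ended (adjusted p = 0.08). Limma called 0 of the 5 without 90 min and 0 without 150 min.

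Of 10 histone genes 4 were higher and 0 lower than at t=0 (median 0.41), beside 3.61% and 3.93% of all genes. HHF1, for histone H4, was at 0.63, 1.00 and 0.65 (0.76 ± 0.21, SD, n = 3, adjusted p = 0.0019), and HTA2, for H2A, at 0.57, 0.66 and 0.82 (0.69 ± 0.12, adjusted p = 0.007). HHF1 was called without each single late array (adjusted p from 0.0098 to 0.0246). HHF1 had been between 0.29 and 0.50 in the early window and between 0.30 and 0.64 in the middle window. Late after 2 g/l HHF1 was at 1.01, 0.76 and 1.01. Of the histone genes 2 were called without 90 min, 3 without 120 min and 1 without 150 min, where HTA2 had an adjusted p of 0.0854.

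Among single genes, the highest calls after CYC1 stood in various pathways. RIB5, for riboflavin synthase, was at 0.90, 0.91 and 0.95 (0.92 ± 0.03, SD, n = 3, adjusted p = 0.0146), after -1.29 to -0.18 in the middle window and 0.93 at 2 min. SNZ1, of vitamin B6 synthesis, was at 0.73, 0.70 and 1.07 (adjusted p = 0.0017), while late after 2 g/l it lay between -0.40 and -0.17. GGC1, the mitochondrial GTP/GDP carrier, was at 0.78, 0.69 and 0.87 (adjusted p = 0.0031). HOR7, a small stress-responsive gene, was at 0.73, 0.92 and 0.97 (adjusted p = 0.0097), and AAD10, a putative aryl alcohol dehydrogenase, at 0.99, 0.64 and 0.68 (adjusted p = 0.0083). CAD1, for a stress regulator of the AP-1 family, was at 0.46, 0.77 and 1.26 (adjusted p = 0.0385), but its call ended with runs centred (adjusted p = 0.063) and without each single late array (adjusted p = 0.0659, 0.104 and 0.325). RIB5 also lost its call without each single late array (adjusted p = 0.08, 0.0576 and 0.105), AAD10 without 90 min (adjusted p = 0.0865) and HOR7 without 150 min (adjusted p = 0.0871). SNZ1 and GGC1 were called without each. The list was completed by ARG4, ARG1, RPN3 and the subtelomeric frames YFL068W and YBL113C.

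The lowest single calls were often uneven between arrays. PFS1, needed for spore formation, was at -1.90, -7.32 and -1.43, so that its mean of -3.55 ± 3.28 (SD, n = 3, adjusted p = 0.0161) rested on 120 min and lost its call without it (adjusted p = 0.21). SAE2, of DNA break repair, was at -2.11, -1.53 and -5.23 (adjusted p = 0.0123), and lost its call without 150 min (adjusted p = 0.25). ATP10, an assembly factor of ATP synthase, fell across the window, at -1.06, -2.70 and -4.21 (adjusted p = 0.00084). RIM9, of the Rim101 pathway, was at -1.08, -3.32 and -2.43, and PTH1, a peptidyl-tRNA hydrolase, at -0.71, -3.21 and -3.05. RIM9 and ATP10 were called without each single late array, while PTH1 lost its call without 120 min (adjusted p = 0.0875) and without 150 min (adjusted p = 0.118). PPM2, a tRNA-modifying enzyme, had the smallest SD of the 12 lowest genes (0.47), at -1.85, -2.76 and -2.11 (adjusted p = 0.00031), against -0.64 to -0.47 late after 2 g/l. YGL235W, YBL112C, YCL042W, RPR2 and YFL066C completed the 12 lowest with FIT2. YBL112C and YFL066C lie in repeated subtelomeric sequence whose copies a spot may not tell apart, as do YFL068W and YBL113C.

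Other lists held few calls, set beside 3.61% of all genes higher and 3.93% lower. RNR1, the large subunit of ribonucleotide reductase, was at -1.33, -1.59 and -2.15 (adjusted p = 0.0106), the lowest of 3 lower genes among 32 of the G1 to S transition. Of the 3, 1 was lower with runs centred, 1 without 90 min and 0 without 150 min, where RNR1 had an adjusted p of 0.118. Of 35 meiosis and sporulation genes 4 were lower, among them SSP1 at -2.13, -1.26 and -0.37, but limma called 0 without 90 min. In the phosphate list 3 of 24 were lower, with PHM6 at -1.43, -0.79 and -1.38 (adjusted p = 0.0127), and 1 was higher, but PHM6 lost its call without 90 min (adjusted p = 0.103) and without 150 min (adjusted p = 0.116). Of 103 ribosome biogenesis genes 3 were lower (2.91%), a smaller share than the 3.93% of all genes.

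**Figure D4:**
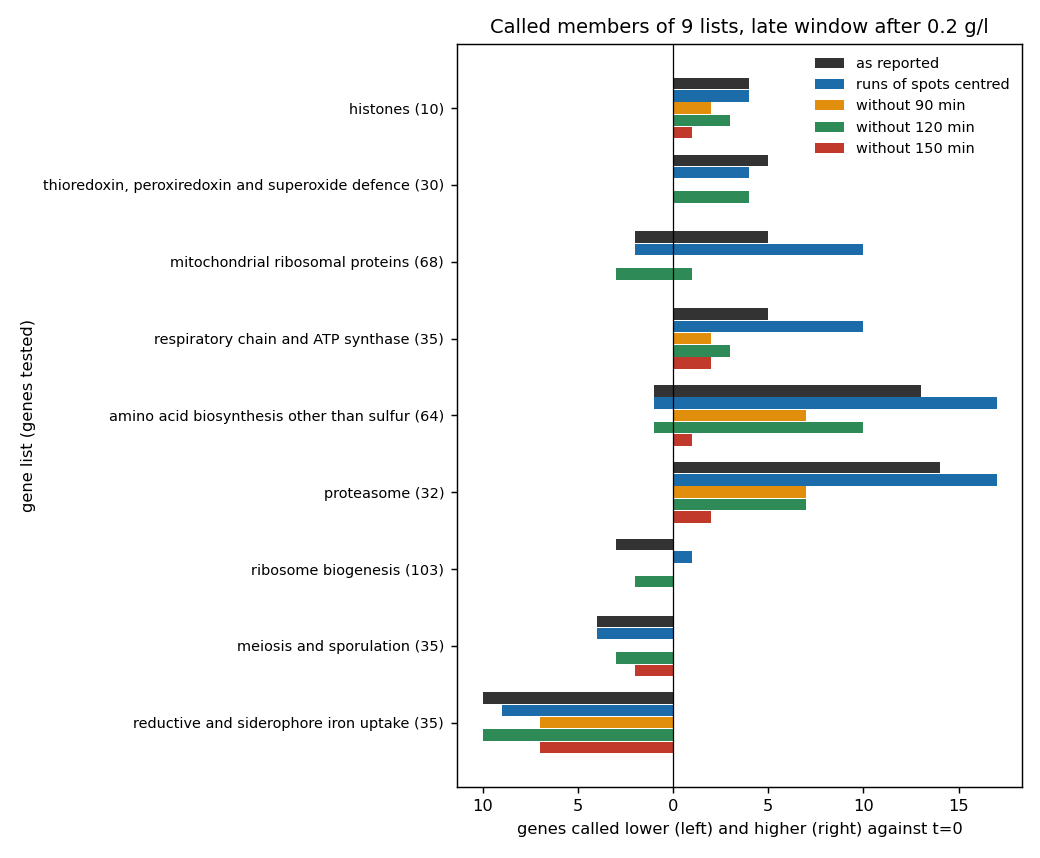
Number of genes called lower (bars to the left of 0) and higher (bars to the right) against t=0 in 9 lists (rows, with the number of genes tested), as reported, with runs of spots centred, and without the array of 90, 120 or 150 min (bar colours). The iron list keeps 7 to 10 lower genes under each of these settings, the proteasome list keeps 2 to 17 higher genes, and the mitochondrial ribosomal and redox lists lose all calls without 90 min or without 150 min.

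In 6 lists for sugar use and ribosomal proteins no gene passed the test against t=0. Limma called 0 of 9 galactose genes, 0 of 21 hexose transport genes, 0 of 22 of gluconeogenesis and the glyoxylate cycle, 0 of 24 of glycolysis and fermentation, 0 of 77 large subunit and 0 of 55 small subunit ribosomal proteins against t=0. At an unadjusted p under 0.05 these were 0, 3, 1, 6, 5 and 3 genes. The list medians were -0.066, -0.15, 0.22, -0.071, 0.10 and 0.074. GAL1, the galactokinase, was at 0.49, 0.26 and 0.40 (adjusted p = 0.59). Runs centred called 1 glycolytic gene higher.

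Some genes of these lists differed from the middle window. Limma called 102 genes (1.90%), 68 higher (1.27%) and 34 lower (0.633%), and 89 higher (1.66%) and 121 lower (2.25%) with runs centred. The largest fall was that of HXT7, for a high-affinity glucose transporter, which was at 3.31, 4.07, 4.22 and 4.40 at 15, 20, 30 and 45 min and at 0.92, 0.73 and 0.79 late (difference -3.19 ± 0.58, SE, adjusted p = 0.0073). The groups did not overlap, which was a condition for naming the largest differences. HXT7 was still above 0 on all 3 late arrays without passing the test against t=0 (adjusted p = 0.28). Its near-identical neighbour HXT6 may bind the same probe. The spot of HXT6 itself, not tested, was at -1.66, -0.57 and -2.93. HXT5, a transporter of slow or starved growth, went up instead, from between -2.02 and -0.80 to 0.54, 0.16 and 0.48 (adjusted p = 0.0125).

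Gluconeogenesis and the glyoxylate cycle had the largest share of higher genes of the 35 lists: 10 of 22 genes rose between middle and late and 0 fell. Over all genes 1.27% were higher and 0.633% lower. With runs centred 8 of the 22 rose, beside 1.66% of all genes. The list median was 1.53 beside 0.14 for all genes. Without 90 min 5 of the 22 were called, without 120 min 4 and without 150 min 0. FBP1, fructose-1,6-bisphosphatase, went from -2.41, -2.18, -1.52 and -0.92 to 0.43, 0.53 and 0.63 (2.29 ± 0.46, SE, adjusted p = 0.0109). MLS1, malate synthase, went from between -3.30 and -0.54 to 0.85, 0.70 and 0.90 (adjusted p = 0.028), a call that ended without each single late array (adjusted p = 0.074, 0.0854 and 0.11). PCK1, which commits carbon to gluconeogenesis, rose by 2.01 (adjusted p = 0.0073). SIP4, an activator of these genes, and CAT2, which moves acetyl groups, rose by 2.48 and 2.49. All late values of these 5 genes were above 0 and all their middle values below 0. At 2 min FBP1 had been at 0.52 and MLS1 at 0.78.

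The opposite moves were in fermentation and ribosomes. Of 24 glycolytic and fermentative genes 5 fell: PFK27, a phosphofructokinase that produces a signal for glycolysis, the pyruvate decarboxylases PDC1 and PDC5, HXK2, the main glucose kinase, and GPM1. PDC1 went from 1.39, 1.57, 1.22 and 0.18 to -0.38, -0.50 and -0.45 (-1.53 ± 0.31, SE, adjusted p = 0.0121). HXK2 went from between 0.86 and 1.05 to between -0.52 and -0.06 (adjusted p = 0.0073). Of 77 large subunit ribosomal proteins 8 were lower than in the middle window (median -0.79), and of 55 small subunit proteins 8 (median -0.83). With runs centred, where 2.25% of all genes were lower against 0.633% uncentred, these became 39, and 23 with 1 higher. Without 90, 120 and 150 min they became 4, 1 and 0 large subunit genes and 1, 1 and 0 small subunit genes, and the glycolytic genes became 3, 1 and 0. RPP2A, of the ribosomal stalk, fell from 1.07, 1.35, 1.00 and 0.60 to 0.07, -0.60 and -0.62 (adjusted p = 0.0073). Of 38 general stress genes 4 rose, with SIP18 at 0.75, 0.42 and 0.61 after -2.42 to -0.93. The heat shock protein HSP26 rose by 2.17 (adjusted p = 0.0077). Without 150 min the calls of HXT7, HXT5, FBP1, MLS1, PCK1, SIP4, CAT2, PDC1, HXK2, RPP2A, SIP18 and HSP26 all ended (adjusted p from 0.0507 to 0.11), with their directions kept, and LEU4 was the 1 gene called. The count against the middle window was 58 without 90 min, 35 without 120 min and 1 without 150 min. With only the 0.2 g/l arrays in the fit limma called 0 genes (821 at an unadjusted p under 0.05). Of the middle arrays, leaving out 15 min gave 43, leaving out 20 min 41 and leaving out 45 min 829.

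**Figure D5:**
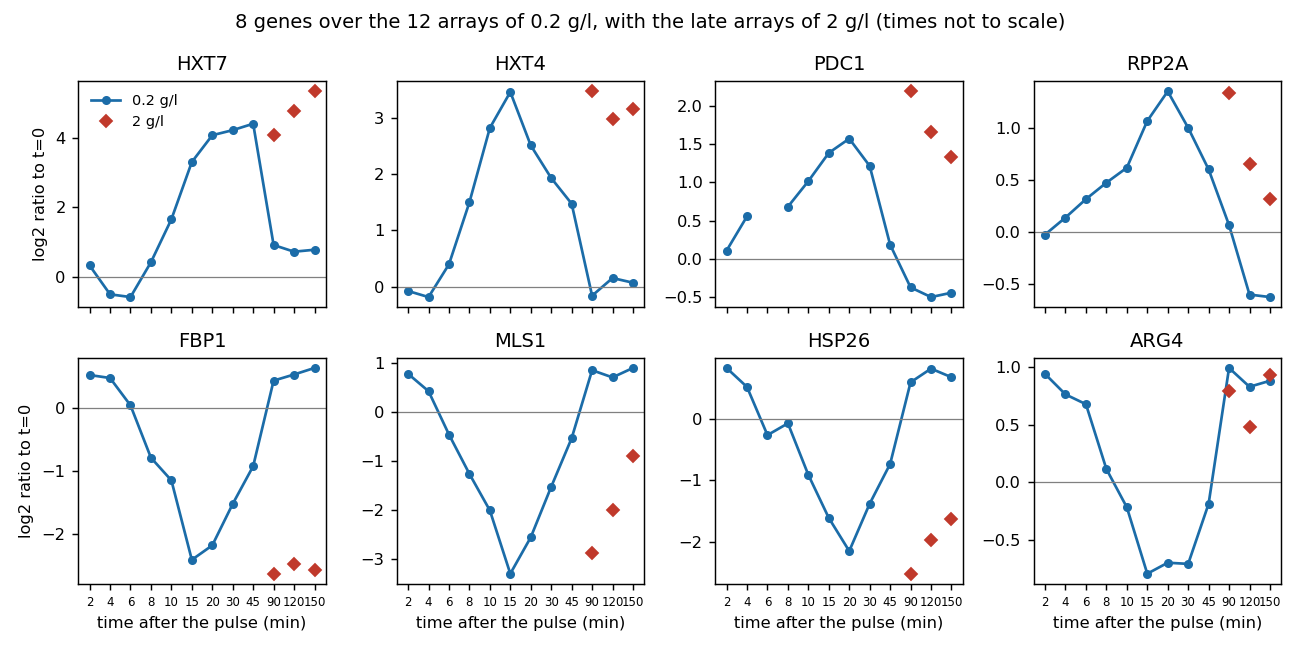
Log2 ratio to t=0 (vertical axis, own scale in each panel) of 8 genes on the 12 arrays of 0.2 g/l (circles, joined) and the 3 late arrays of 2 g/l (diamonds), with time in minutes along the horizontal axis, evenly spaced and not to scale. HXT7, HXT4, PDC1 and RPP2A come down by 90 min and FBP1, MLS1, HSP26 and ARG4 come up, and the late 2 g/l values stay apart from them for HXT7, HXT4, PDC1, RPP2A, FBP1, MLS1 and HSP26 but not for ARG4.

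Against the early window limma called 203 genes (3.78%), 64 higher (1.19%) and 139 lower (2.59%), and 122 higher (2.27%) and 181 lower (3.37%) with runs centred. Ribosome biogenesis gave the most lower genes, 17 of 103 with 0 higher (median -1.05 beside -0.0086 for all genes), and 28 with runs centred but 1 without 90 min, 10 without 120 min and 7 without 150 min. The count over all genes was 54 without 90 min, 123 without 120 min and 52 without 150 min, and between 51 and 441 without single early arrays, the highest without 2 min and the lowest without 10 min. RRP9, of the U3 snoRNP, went from 0.55, 1.16, 1.92, 1.35 and 1.49 in the first 10 min to -0.11, -0.23 and -0.18 (-1.47 ± 0.31, SE, adjusted p = 0.0137), a call that ended without 150 min (adjusted p = 0.0543). AQR1, a multidrug transporter, fell from between 1.8 and 4.12 to between -0.67 and -0.18 (adjusted p = 0.00257). VID24, for the adaptor that marks gluconeogenic enzymes for degradation, fell from between 1.59 and 2.77 to -1.27, -0.17 and -1.07. That put it below t=0 (adjusted p = 0.0407), which ended with runs centred (adjusted p = 0.16), without 90 min (adjusted p = 0.293) and without 150 min (adjusted p = 0.263).

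Upward, MPC3, of the mitochondrial pyruvate carrier, went from between -3.46 and -1.56 to 0.07, 0.21 and 0.44 (3.17 ± 0.41, SE, adjusted p = 0.000156). ISF1, TMA10 and RGI1 rose by 2.98, 2.69 and 2.57, to late means that the test against t=0 did not call (adjusted p = 0.93, 1.00 and 0.65). CYC1 was higher than in the early window (1.07, adjusted p = 0.035), where it had been between -0.20 and 0.28, but the call ended without each single late array (adjusted p = 0.0849, 0.16 and 0.0522).

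The late window of the larger pulse differed in some of the genes that answer to glucose, and in others. The difference 0.2 g/l minus 2 g/l was called for 163 genes (3.03%), 102 higher (1.90%) and 61 lower (1.14%) after 0.2 g/l, and for 143 (2.66%) and 78 (1.45%) with runs centred. Both late windows are ratios to t=0, and only 3 arrays stood on each side. With runs centred the galactose genes GAL1, GAL2, GAL7 and GAL10 lay 1.27, 1.69, 1.21 and 0.95 higher after 0.2 g/l. None of these differences was called (limma adjusted p = 0.175, 0.301, 0.424 and 0.471). Leaving out any 1 late array of 0.2 g/l gave no call of these genes either. HXT7 was at 4.08, 4.76 and 5.33 after 2 g/l, 3.92 above its level after 0.2 g/l (SE 0.62, adjusted p = 0.0013). HXT4 was at 3.47, 2.98 and 3.16 against -0.16, 0.15 and 0.07 (adjusted p = 0.0092). FBP1 was at -2.63, -2.48 and -2.56, and differed by 3.09 (SE 0.49, adjusted p = 0.0013). None of these values overlapped between the pulses, but that was a condition for naming the largest differences and is no separate support.

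By list, 13 of 35 iron genes were higher after 0.2 g/l and 0 lower (17 with runs centred), with a median difference of 0.65 beside -0.042 for all genes. Over all genes 1.90% were higher and 1.14% lower, and 2.66% and 1.45% with runs centred. FRE3 was at -3.06, -2.98 and -2.76 after 2 g/l (difference 2.09, adjusted p = 0.0013) and SIT1 at -3.06, -2.92 and -1.83 (1.76, adjusted p = 0.0015). FIT2, which had been among the lowest after 0.2 g/l, was lower still after 2 g/l, at -4.26, -4.66 and -3.74 (1.77, adjusted p = 0.0164), though without 150 min of 0.2 g/l the call ended (adjusted p = 0.103). FIT3, at -1.96, -3.08 and -3.11 after 2 g/l, overlapped between the pulses. Of 22 gluconeogenic genes 6 were higher and 0 lower, of 24 glycolytic genes 0 were higher and 9 lower, and of 38 stress genes 6 were higher and 0 lower. With runs centred these counts were 7, 8 and 7. Without single arrays they were 2 to 4, 5 to 8 and 4 to 6, and the iron count was 8 to 16. PDC1 was at 2.20, 1.66 and 1.34 after 2 g/l, and HSP26 at -2.52, -1.98 and -1.63. The count over all genes was 15 when the 6 late arrays were paired by time, with 10 of 42 genes named here still called, and lay between 59 and 127 without single arrays. It was 59 without 150 min of 0.2 g/l, 60 without 90 min of 2 g/l and 59 without 120 min of 2 g/l.

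A slope on time within the window was called for 76 genes (1.41%), 74 of them rising. Of the 74 rising genes 66 had a spot in runs 19 or 20, where 363 of the 5372 genes tested lie, and where the 90 min array was lowest. SNN1, of a lysosome-related complex, was at -2.58, 0.33 and 0.53, and the small nuclear ribonucleoprotein SMD3 at -2.02, 0.39 and 0.67. With runs centred 2 genes were called, both rising and both among the 76. Without 90 min 2 genes were called, both falling, and 0 of them were among the 76. Of the 2583 genes in runs 1 to 16, 0 were called. The 2 falling genes of the 76 were ATP10 and CIS1. CIS1 was named after its values were seen and had no value at 90 min and 0.21 and -2.15 afterwards. The part of spot position in the rising genes was not tested beyond these counts.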

How the data were processed

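Total RNA of each time was hybridised with RNA of the t=0 culture on 2-colour arrays. The authors deposited 1 value per spot and array, used here as log2 ratios of Cy5 (sampled time) to Cy3 (t=0) per the labels. That scale and direction were inferred from the labels and the values. The normalization was not given in the sources used here. Of 10752 spots, 6834 were paired with 1 gene by the platform annotation and 3918 with none. The spots of a gene were averaged, which gave 5606 genes, 1165 of them with several spots and 247 with spots that disagreed by a median of over 0.5.

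limma 3.58.1 in R 4.3.3 (lmFit and eBayes) fitted the means of 7 pulse-by-window groups on all 26 arrays, for the 5372 genes that had 2 or more values in each group. Genes at a Benjamini-Hochberg adjusted p of at most 0.05 over all of them were called, and every adjusted p in the text comes from limma. The difference between the late windows is a contrast of that fit, and the slope is the change over the 60 min of the late window. Each time had 1 array, and what limits the precision was not tested. Tables and plots used Python 3.11.15, pandas 2.3.3, numpy 2.4.6 and matplotlib 3.10.9. On simulated data of the same design, 70% of genes with a true log2 change of 1 against 0 and 94% of those with 2 were called, and for the slope 11% and 48%. The simulated noise was normal and independent between genes and arrays, without shifts by run or a shared offset of t=0. How far these shares hold for the real arrays was not tested.

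The members and the 35 gene lists were chosen with earlier results of these data known. Named genes are the 12 highest and 12 lowest calls against 0 with 1 sign on all 3 arrays, and the 8 highest and lowest of each other comparison whose groups do not overlap, in both cases without genes whose spots disagree. Members of the main lists, and from the remaining lists at most 4 called genes apiece, were added with no such condition. Further called genes of the amino acid and respiratory lists were named to account for a count, and RRP9, GND2, HXT6 and CIS1 after their values were seen. Alternatives changed the scaling, the averaging of spots, the filter, the arrays in the fit and the threshold, and left out single arrays. Centring the runs of spots and keeping the first 16 runs were chosen after seeing the data. Promoter sequences were not used here.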

Additional observations from a re-analysis of the deposited data

Results flagged for a closer look

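The late windows of the pulses differed by the test of the difference itself, 0.2 g/l minus 2 g/l, for 163 genes, and the 42 of them that are named in the text are given here. All values are differences on the log2 scale from limma, with 3 arrays in each window, and the amount of glucose and the culture cannot be told apart. With matched times as a block 10 of the 42 were still called (HXT2, HXT7, HXT4, HXT5, FBP1, SFC1, PCK1, PDC5, HSP26 and DDR2) and 32 were not, and with runs centred 39 were. Without the 90, 120 and 150 min array of 0.2 g/l, 33, 30 and 24 were still called, and HXT2, SFC1, MLS1, ENO1, AHP1, COX4 and TIS11 lost their call in each of these cases.

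Among hexose transporters HXT2 differed by -3.97, HXT7 by -3.92 and HXT4 by -3.18, while HXT5 differed by 2.24. Among iron genes the differences were 2.09 for FRE3, 1.77 for FIT2, 1.76 for SIT1, 1.68 for FRE2, 1.65 for FRE1, 1.58 for ENB1, 1.45 for HMX1, 1.33 for ARN1, 1.17 for FET3 and 1.08 for TIS11. In gluconeogenesis and the glyoxylate cycle they were 3.09 for FBP1, 3.09 for SFC1, 2.74 for MLS1 and 2.10 for PCK1. In glycolysis and fermentation they were -2.61 for PFK27, -2.17 for PDC1, -1.76 for PDC5, -1.51 for CDC19, -1.36 for ENO2, -1.18 for ENO1, -0.98 for GPM1 and -0.96 for HXK2. Stress genes differed by 2.74 for HSP26, 2.65 for SIP18, 2.33 for DDR2 and 2.30 for YGP1. Higher after 0.2 g/l were also GND2, of the pentose phosphate pathway, by 2.23, CAD1 by 1.45, SNZ1 by 1.11, COX4 by 0.63 and LEU4 by 0.62. Lower were YGL235W by -3.18, YBL112C by -3.07, RIM9 by -1.93, PPM2 by -1.69, VID24 by -1.48, RPP2A by -1.16 and the peroxiredoxin AHP1 by -1.05.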

How the results depend on the processing

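Counts of called genes moved more with the processing than the direction of the named genes that were called, none of which changed sign under any alternative run. Against t=0 the count of 405 genes became 1299 with quantile normalization, 256 with only genes valued on all 26 arrays (67.2% of them higher, against 47.9%), 264 with only the 0.2 g/l arrays, 0 with only the arrays compared, 103 at a difference of at least 1 and 219 in the first 16 runs of spots (84% higher). Centring whole arrays left 36.6% of the calls higher, leaving out 30 and 45 min made it 61.1% and centring runs 62.9%. Late minus middle, the count of 102 became 340 with quantile normalization, 0 with only the 0.2 g/l arrays, 1 with only the arrays compared, 1061 without 30 and 45 min and 210 with runs centred. Centring whole arrays left 46.8% of these calls higher and centring runs 42.4%, against 66.7%. Late minus early, the count of 203 became 911 with quantile normalization, 17 with only the 0.2 g/l arrays, 558 without 30 and 45 min, 130 at a difference of at least 1 and 109 in the first 16 runs. For 0.2 g/l minus 2 g/l, the count of 163 became 654 with quantile normalization, 302 without 30 and 45 min, 84 at a difference of at least 1 and 15 with matched times as a block. For the slope, the count of 76 became 49 with arrays centred, 0 with only the 0.2 g/l arrays, 0 with only the arrays compared, 174 without 30 and 45 min, 2 with runs centred and 0 in the first 16 runs. Leaving out single arrays gave 96 to 314 genes against t=0, 1 to 829 late minus middle, 51 to 441 late minus early, 59 to 127 for 0.2 g/l minus 2 g/l and 2 to 123 for the slope. The lowest late minus middle count was without 150 min, and the lowest slope count without 90 min. The cause of these moves was not tested. Where limma called 0 genes, between 38 and 1487 were at an unadjusted p under 0.05. The labels give no replicate numbers, so the late arrays were paired by time alone, in the block above. Each time had 1 array and each pulse 1 culture, and signal over background was not used here. With no exchange of dyes, dye effects could not be separated from a difference to t=0.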
